A study of Mus musculus with 5 samples.

Results

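The genes described here are the subunits of 2 families of cell-matrix adhesion proteins, the integrins and the laminins, taken from the rows of the deposited count table whose symbols name an integrin alpha subunit, an integrin beta subunit or a laminin chain. Itga2b lies outside this naming rule, and the members described number 34 of the 23441 rows: 7 leukocyte integrin subunits (Itgad, Itgae, Itgal, Itgam, Itgax, Itgb2 and Itgb7), 17 subunits of matrix-binding integrins and 10 laminin chains. Their poly(A) transcripts were sequenced from mouse mandibles dissected at embryonic day 10.5. The 2 dCKO libraries have the genotype Wnt1Cre; Yapf/f, Tazf/f on the background C57BL/6J x CBA/J; 129SvEv, and the 3 control libraries the genotype Yapf/f, Tazf/f, with no Cre named, on the background 129SvEv. All 5 libraries thus carry the floxed Yap and Taz alleles, and genotype and strain background cannot be told apart. Wnt1Cre drives recombination in the premigratory neural crest, which forms most of the mesenchyme of the first arch, while epithelium, mesoderm, endothelium and blood in the same dissected tissue lie outside the driver's domain. The labels do not say whether libraries came from separate embryos or from pools, and the p-values therefore reflect the spread among 5 libraries that may be partly technical.

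Integrins are heterodimers of an alpha and a beta subunit that span the plasma membrane and tie the extracellular matrix, or ligands on other cells, to the actin cytoskeleton. The alpha subunit largely sets the ligand: Itga1, Itga2, Itga10 and Itga11 bind collagens, Itga3, Itga6 and Itga7 bind laminins, and Itga5, Itga8 and Itgav bind fibronectin and other ligands through an RGD motif. Itgb1 pairs with most matrix-binding alpha subunits. Itgb2 is the shared beta subunit of Itgal, Itgam, Itgax and Itgad on leukocytes, and Itgb7 pairs with Itgae and Itga4. Laminins are trimers of an alpha, a beta and a gamma chain that polymerise into the basement membrane, the sheet on which epithelia and endothelia rest and along which neural crest cells migrate.

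Total counts ran from 11346480 to 13298973 in the dCKO libraries and from 6491137 to 7439419 in the control libraries. Both targeted genes were lower in the dCKO libraries, Yap1 with 175 and 169.9 CPM (read counts scaled to the size of the library, with TMM factors), against 312, 475 and 512 CPM in the control libraries. Wwtr1, the symbol of Taz, had 22.7 and 22.8 CPM in the dCKO libraries, against 38.4, 65.1 and 66.2 CPM in the control libraries. The 10 neural crest mesenchyme markers summed to 1962 and 2044 CPM in the dCKO libraries and to between 2131 and 2289 CPM in the control libraries, and none was at 0. All 10 were tested and 3 were called (30.0%, against 6.42% of all tested genes). Alx4 was called higher at a log2 fold change of 0.48, and Prrx1 and Dlx5 were called lower at −0.42 and −0.44. The dCKO libraries held many more blood cell transcripts: 11 erythroid markers summed to 79962 and 55717 CPM, against 3416 to 4425 CPM in the control libraries, and 10 megakaryocyte and platelet markers to 104 and 197 CPM, against 10.1 to 18.8 CPM. All 11 erythroid and all 8 tested platelet markers were called higher. Those with the smallest p were Hbb-bh1, Slc4a1, Hba-x and Alas2 (log2 fold changes of 4.19, 4.49, 4.02 and 3.99) and, among platelet markers, Itga2b, Pf4, Gp9 and Ppbp (3.90, 3.38, 3.90 and 3.29). In bulk tissue, a change in the number of cells of a type and a change in RNA per cell cannot be told apart.

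The results turn on Itgb2, Itga3 and Lama5. RefSeq promoter windows were at hand for 22 of the 34 members, among them Itga3 and Lama5, whose 250 bases before the annotated start are shown here because the deleted coactivators act on chromatin through TEAD factors. For Itga3, the more upstream of 2 annotated starts was taken. Both genes lie on the minus strand of their chromosome, at chr11:95076715-95076964 and chr2:180225860-180226109 in GRCm38.p6, and both sequences read 5′ to 3′ towards the start. Capitals mark every match to GGGCGG, the GC box, or to its reverse complement CCGCCC.
Itga3: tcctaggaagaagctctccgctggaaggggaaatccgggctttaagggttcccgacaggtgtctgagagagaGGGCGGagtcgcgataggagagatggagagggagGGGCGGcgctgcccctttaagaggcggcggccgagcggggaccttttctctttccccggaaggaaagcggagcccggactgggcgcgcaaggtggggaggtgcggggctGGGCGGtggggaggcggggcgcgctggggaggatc
Lama5: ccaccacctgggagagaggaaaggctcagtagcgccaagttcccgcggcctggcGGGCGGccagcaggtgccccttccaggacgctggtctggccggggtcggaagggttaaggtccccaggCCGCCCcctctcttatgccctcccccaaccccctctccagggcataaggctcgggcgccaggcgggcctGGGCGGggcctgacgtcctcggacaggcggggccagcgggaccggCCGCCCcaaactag
The Itga3 window held 3 GC boxes and the Lama5 window 4, and their base composition was 67.6% and 72.4% G or C, against a median of 60.4% over the windows of tested genes. A GC box on either strand was found in 61.7% of the 9434 windows of tested genes, and in 8 of the 22 member windows. The TEAD motif GGAATG, or CATTCC on the other strand, occurred in neither printed window, while 10.7% of all tested windows held it and 2 of 22 member windows did, those of Itgb1 and Itga10. Such matches describe letters and not binding.

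Most integrin and laminin genes did not pass the test between dCKO and control mandibular tissue, and the 3 that did were all higher in dCKO tissue. Itgb2, the leukocyte beta subunit, was 4.19 times as high, Lama5, an alpha chain of basement membrane laminin, 1.58 times, and Itga3, a laminin-binding alpha subunit, 1.43 times. Of the 34 members, 26 had enough counts to be tested. Of these, 3 were called higher and 0 lower, or 11.5%, by edgeR's quasi-likelihood test at a Benjamini-Hochberg adjusted p below 0.05 over all 12710 tested genes, where 6.42% of all tested genes were called, 636 as higher and 180, or 1.42%, as lower. The count of lower calls was 39 without dCKO replicate 1, 63 without control replicate 1, 79 without dCKO replicate 2, 97 without control replicate 2 and 687 without control replicate 3. A share of 3 in 26 exceeds that background by little more than 1 gene. An unadjusted p below 0.05 was reached by 5 members, all higher, against 21.5% of all tested genes, and DESeq2 and limma-voom also called 0 members lower. The number of members called was 1 without control replicate 1, when Itgb2 alone passed, and 1 without dCKO replicate 2, when Itga3 alone passed, and 2 without control replicate 2 or dCKO replicate 1 (Itgb2 and Lama5). The median log2 fold change (dCKO over control) was 0.04 over the 26 tested members and −0.00 over all tested genes. In 7 of the 26 tested members, or 26.9%, dCKO and control values lay apart, against 37.6% of all tested genes. All 7 were higher in dCKO tissue (Itgb2, Itga3, Itga6, Itga11, Itgb4, Lama5 and Lamb1), where 19.0% of all tested genes had every dCKO library above every control library and 18.6% had the reverse. Of these, Itgb2 and Itga11 passed the filter on low counts only through their dCKO libraries, so their direction was fixed in advance. Both are also among the 5 members with an unadjusted p below 0.05.

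**Figure D1:**
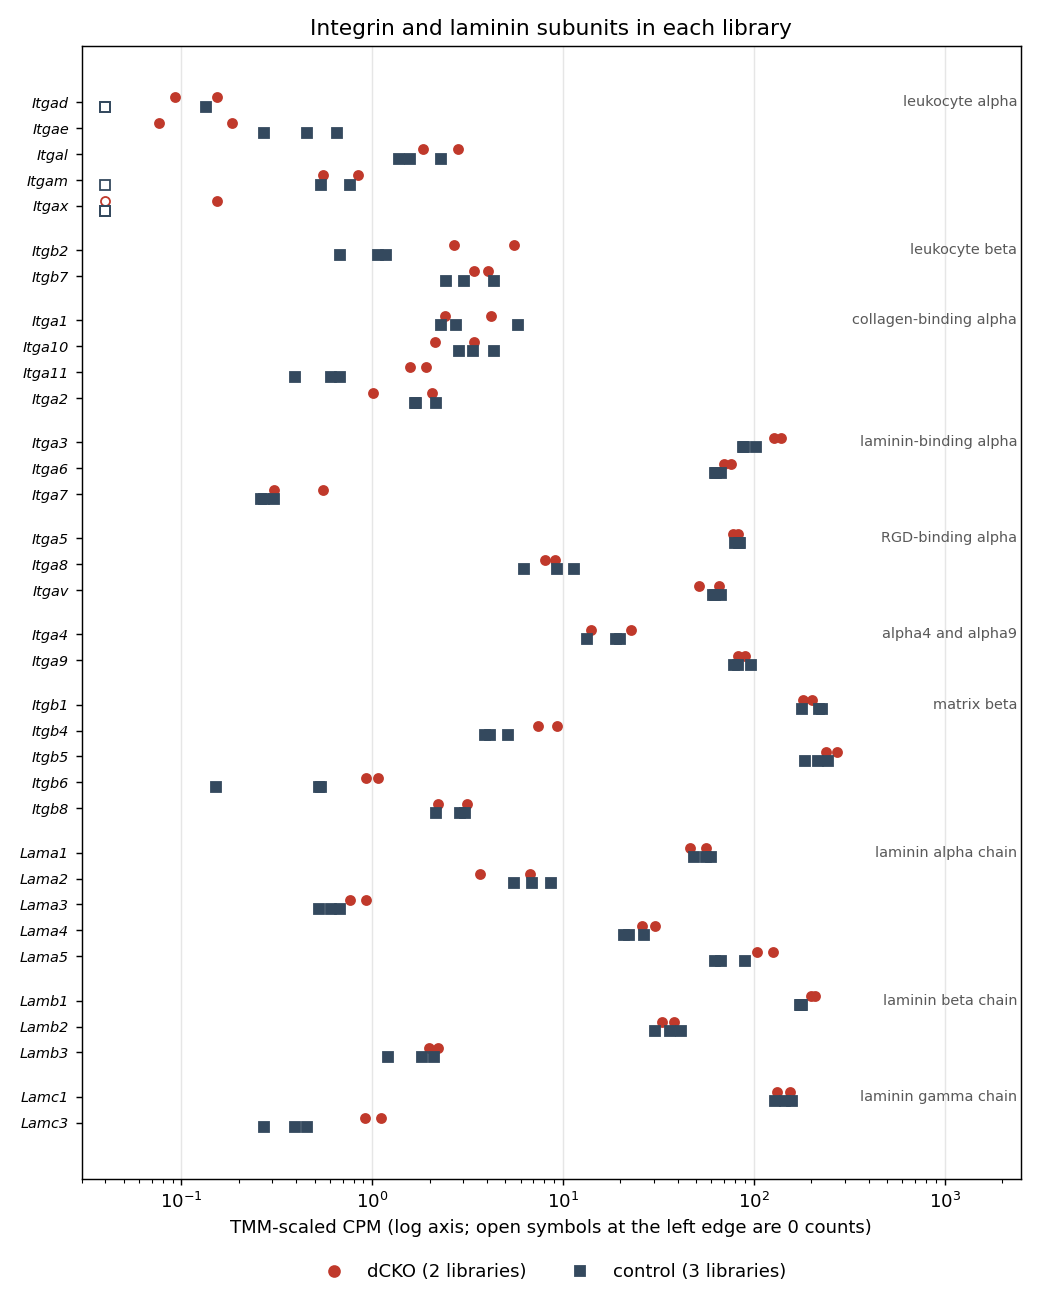
TMM-scaled CPM of all 34 members in each library on a log axis, grouped by role, with dCKO libraries as red circles above control libraries as dark squares and libraries with 0 counts as open symbols at the left edge. Levels span from under 1 CPM for most leukocyte alpha subunits to more than 150 CPM for Itgb1, Itgb5 and Lamb1, and the groups lie close together for most genes, while Itgb2, Itga11, Itgb4, Lama5 and Itga3 are among the 7 tested members whose groups lie apart.

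Leukocyte integrins were the least abundant class, and Itgb2 was the member with the largest fold change. Itgb2 had 2.68 and 5.51 CPM in the dCKO libraries (29 and 72 counts), against 1.18, 0.676 and 1.07 CPM in the control libraries (9, 5 and 7 counts). Both dCKO libraries lay above every control library, dCKO replicate 2 well above dCKO replicate 1. Itgb2 fell below the filter on low counts in every control library, so it could be tested only because its dCKO libraries were high. Its log2 fold change stood at 2.07 (SE 0.48, 95% interval 1.05 to 3.08, edgeR adjusted p = 0.0119). It rested on dCKO replicate 2: without that library it was 1.45 (SE 0.71, edgeR adjusted p = 0.313), and without any 1 of the other libraries it ran from 1.86 to 2.49 with the call kept.

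Of the alpha subunits that pair with Itgb2, Itgal was scarce but tested, and Itgam, Itgad and Itgax were barely detected. Itgal, the alpha subunit of the lymphocyte antigen LFA, had 1.85 and 2.83 CPM in the dCKO libraries, against 1.58, 2.30 and 1.37 CPM in the control libraries. The groups overlapped, and the log2 fold change of 0.42 (SE 0.46, 95% interval −0.55 to 1.39) did not pass the test. Itgam, the subunit found on macrophages and granulocytes, had 6 and 11 counts in the dCKO libraries, against 0, 4 and 5 counts in the control libraries. Itgad had 1 and 2 counts against 0, 1 and 0, and Itgax, known from dendritic cells, 0 and 2 counts against 0, 0 and 0, both too few for a fold change. Itgae, an alpha subunit of intraepithelial lymphocytes, had 2 and 1 counts in the dCKO libraries, against 5, 2 and 3 counts in the control libraries. Itgam, Itgad, Itgax and Itgae had too few counts to be tested. Itgb7, the other leukocyte beta subunit, had 3.42 and 4.06 CPM in the dCKO libraries, against 3.02, 4.33 and 2.44 CPM in the control libraries, groups that overlapped (log2 fold change 0.19, SE 0.37). Among the 3 tested leukocyte integrins 1 was called, Itgb2 (33.3%, against 6.42% of all tested genes, in a class too small to compare). That share counts a gene that passed the filter on low counts only through its dCKO libraries. The summed level of all 7 leukocyte integrins was 8.78 and 13.6 CPM in the dCKO libraries, against 6.44, 8.25 and 6.11 CPM in the control libraries.

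Some leukocyte markers were also higher in the dCKO libraries. Of 12 myeloid and pan-leukocyte markers, 7 were tested and 2 were called, both higher (28.6%, against 6.42% of all tested genes, with a median log2 fold change of 1.11): Laptm5, a lysosomal membrane protein of blood cells, at 1.42 (SE 0.25) and Coro1a, an actin-binding protein of leukocytes, at 0.81 (SE 0.19). All 7 tested markers had log2 fold changes above 0. In 4 of the 7 (57.1%, against 19.0% of all tested genes) every dCKO library lay above every control library. Spi1, 1 of these 4, passed the filter on low counts only through its dCKO libraries. Among the 5 markers with too few counts, Aif1, Cd52 and Fcgr3 had lower means in dCKO tissue (0.429, 0.276 and 0.675 CPM) than in control tissue (0.461, 0.720 and 0.929 CPM). Ptprc and Tyrobp had higher means in dCKO tissue (1.08 and 1.26 CPM) than in control tissue (0.687 and 0.763 CPM). The 12 markers summed to 51.5 and 82.1 CPM in the dCKO libraries, against 32.6, 37.1 and 39.1 CPM in the control libraries, and none was at 0 throughout a group. Ptprc, the defining pan-leukocyte marker, had 11 and 15 counts in the dCKO libraries, against 2, 2 and 10 counts in the control libraries, and was not tested. The library with the most Itgb2, dCKO replicate 2, also had the larger summed levels of leukocyte and of platelet markers of the 2 dCKO libraries, but the smaller summed level of erythroid markers. As a share of the summed leukocyte markers, Itgb2 came to 5.21% and 6.72% in the dCKO libraries and to 3.63%, 1.82% and 2.73% in the control libraries, so that the groups did not overlap on this scale either. Coro1a alone gave 26.2 and 37.8 CPM of that sum in the dCKO libraries and 17.2, 17.0 and 20.6 CPM in the control libraries. Itgb2 had only 9, 5 and 7 counts in the control libraries. The share therefore cannot stand for Itgb2 per leukocyte. The part of blood cell content in the level of Itgb2 was not tested further.

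**Figure D2:**
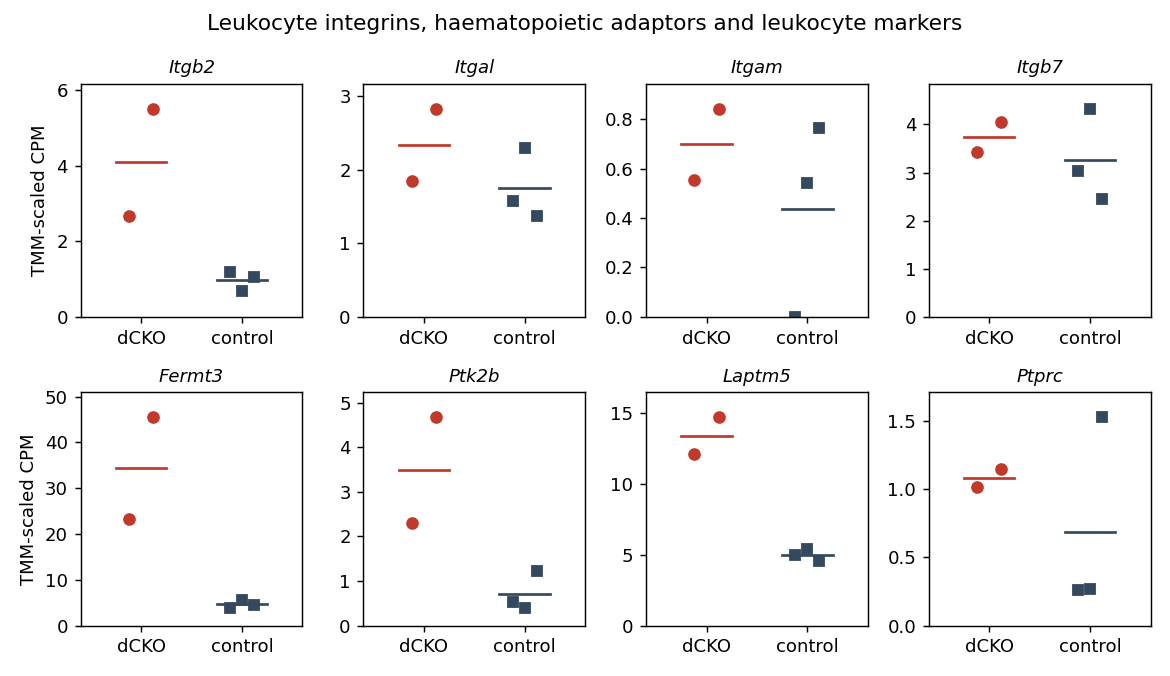
TMM-scaled CPM in each library (points) with the mean of each group (lines) for 4 leukocyte integrins, the integrin adaptors Fermt3 and Ptk2b, and the leukocyte markers Laptm5 and Ptprc, dCKO on the left and control on the right. Itgb2, Fermt3, Ptk2b and Laptm5 have both dCKO libraries above all control libraries, whereas Itgal, Itgam, Itgb7 and Ptprc overlap.

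Matrix-binding integrins were far more abundant, and 1 of the 15 tested passed, a share of 6.67% that is close to the background of 6.42%. Their median log2 fold change was −0.02. Among the alpha subunits that bind laminin, Itga3 had 139 and 128 CPM in the dCKO libraries, against 87.8, 89.3 and 103 CPM in the control libraries. Both dCKO libraries were above all controls, and the log2 fold change was 0.52 (SE 0.12, 95% interval 0.26 to 0.77, edgeR adjusted p = 0.0124). The call was lost without control replicate 1 (edgeR adjusted p = 0.0652), control replicate 2 (0.0606) or dCKO replicate 1 (0.128), at log2 fold changes of 0.47 to 0.49. Removing the dependence of expression on transcript GC content within each library ended it as well and brought the log2 fold change to 0.32 (SE 0.10, edgeR adjusted p = 0.0700), a move of more than 1.5 times. The longest Itga3 transcript is 57.9% G or C. Itga6, the laminin receptor subunit that pairs with Itgb1 or, in hemidesmosomes, with Itgb4, had 69.6 and 76.3 CPM in the dCKO libraries, against 63.1, 67.5 and 62.3 CPM in the control libraries. The groups did not overlap, yet the log2 fold change of 0.18 (SE 0.12) did not pass. Itga7, the laminin receptor subunit of muscle, had 6 and 4 counts against 2, 2 and 2, and was not tested.

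None of the matrix-binding beta subunits passed. Itgb1, the partner of most of these alpha subunits, had 182 and 202 CPM in the dCKO libraries, against 227, 220.2 and 179 CPM in the control libraries, and control replicate 3 lay below both dCKO libraries. Its log2 fold change was −0.12 (SE 0.13), with a 95% interval of −0.39 to 0.15. Itgb5, a partner of Itgav and the member with the highest mean level, had 275 and 240.0 CPM in the dCKO libraries, against 217, 186 and 245 CPM in the control libraries, groups that overlapped at a log2 fold change of 0.25 (SE 0.13). Itgb4, the hemidesmosome subunit of basal epithelial cells, had 7.39 and 9.34 CPM in the dCKO libraries, against 5.12, 3.92 and 4.13 CPM in the control libraries. Its groups did not overlap, and its log2 fold change of 0.93 (SE 0.29, 95% interval 0.33 to 1.53) missed the threshold (edgeR adjusted p = 0.0609). With another filter on low counts it passed, at adjusted p of 0.0298 with none and 0.0456 with a stricter one, while it ranged up to 0.359 over all alternatives. Itgb6, an epithelial partner of Itgav that activates latent TGF-beta, had 10 and 14 counts in the dCKO libraries, against 4, 4 and 1 counts in the control libraries, and was not tested. Itgb8, another partner of Itgav, had 34 and 29 counts against 22, 16 and 20, and its log2 fold change was −0.02 (SE 0.41).

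Subunits that bind fibronectin, tenascin and related ligands differed little in their estimates, though their intervals allow changes of some size. Itga5, the fibronectin receptor subunit, had 78.3 and 83.0 CPM in the dCKO libraries, against 84.6, 79.9 and 84.2 CPM in the control libraries, which overlapped at a log2 fold change of −0.04 (95% interval −0.28 to 0.20). Itgav, which pairs with several beta subunits, had 51.5 and 66.1 CPM in the dCKO libraries, against 62.9, 67.5 and 60.8 CPM in the control libraries (log2 fold change −0.12, 95% interval −0.40 to 0.17). Itga8, the receptor subunit for nephronectin in kidney development, stood at a log2 fold change of −0.07 (95% interval −0.63 to 0.49). Itga9, which binds tenascin-C among other ligands, had 90.5 and 82.9 CPM in the dCKO libraries, against 79.2, 82.5 and 96.2 CPM in the control libraries (log2 fold change 0.01, 95% interval −0.24 to 0.27). Itga4, a fibronectin and VCAM receptor subunit carried by neural crest cells and leukocytes, had 14.0 and 22.7 CPM in the dCKO libraries, against 19.1, 19.9 and 13.3 CPM in the control libraries (log2 fold change 0.08, 95% interval −0.40 to 0.55). In all of these the groups overlapped.

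The 4 collagen-binding alpha subunits were all scarce. Itga11, a collagen receptor subunit of mesenchymal cells, had 17 and 25 counts in the dCKO libraries, against 3, 5 and 4 counts in the control libraries. Its log2 fold change of 1.63 (SE 0.59, 95% interval 0.39 to 2.87) was the second largest among the members, and it did not pass (edgeR adjusted p = 0.113). Like Itgb2, Itga11 passed the filter on low counts only through its dCKO libraries. Itga1 had 2.40 and 4.21 CPM in the dCKO libraries, against 5.78, 2.30 and 2.75 CPM in the control libraries. Control replicate 1 was the highest of the 5, and the log2 fold change was −0.12 (SE 0.43), turning to 0.41 without that library and to −0.59 without dCKO replicate 2, with no call in any setting. Itga2, also a platelet collagen receptor, and Itga10, known from cartilage, stood at −0.24 (SE 0.50) and −0.35 (SE 0.40), with overlapping groups.

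**Figure D3:**
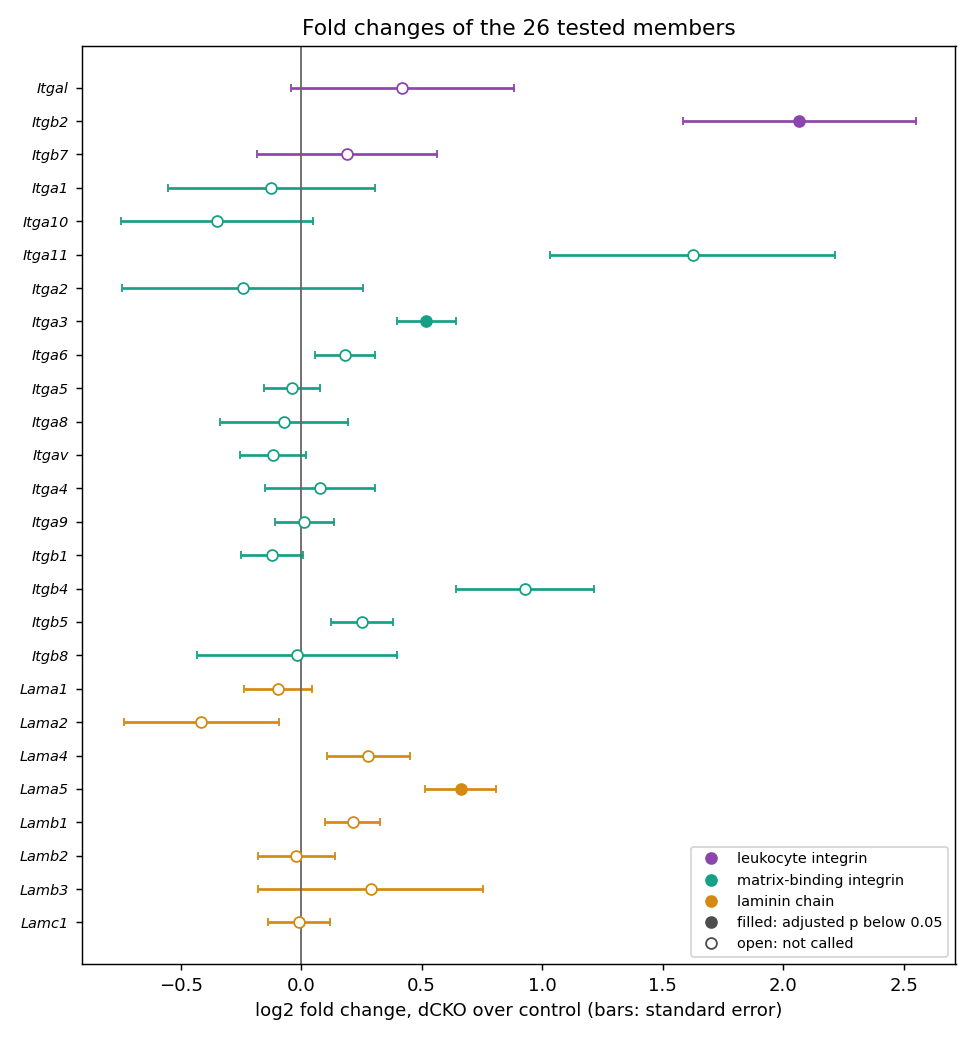
Log2 fold changes, dCKO over control, of the 26 tested members (points) with standard errors (bars), coloured by class, filled where the adjusted p is below 0.05. Itgb2, Itga3 and Lama5 are filled, at 2.07, 0.52 and 0.66, Itga11 and Itgb4 lie far to the right but are open, and most other members sit near 0.

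Among the laminin chains 1 of 8 tested passed, which is 12.5% against the background of 6.42%, and the median log2 fold change was 0.10. Lama5, the alpha chain of the laminins beneath most epithelia and in mature vessels, had 104 and 127 CPM in the dCKO libraries, against 62.3, 67.0 and 90.3 CPM in the control libraries. Both dCKO libraries were above all controls, of which control replicate 3 was the nearest. The log2 fold change was 0.66 (SE 0.15, 95% interval 0.35 to 0.97, edgeR adjusted p = 0.00750). The call was lost without control replicate 1 (0.56, edgeR adjusted p = 0.0622) or dCKO replicate 2 (0.52, edgeR adjusted p = 0.166). With the GC trend removed, Lama5 was still called, at 0.44 (SE 0.11, edgeR adjusted p = 0.0332), though the value moved by over 1.5 times, and its longest transcript is 59.9% G or C.

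The other chains did not pass. Lama1, the alpha chain of the early embryo's basement membranes, had 46.1 and 56.3 CPM in the dCKO libraries, against 56.4, 48.7 and 59.4 CPM in the control libraries (log2 fold change −0.10, SE 0.14). Lama4, of endothelial and mesenchymal basement membranes, stood at 0.28 (SE 0.17), and Lama2, the alpha chain of muscle and nerve, at −0.41 (SE 0.32), both with overlapping groups. Lamb1, the most abundant beta chain, had 199 and 211 CPM in the dCKO libraries, against 175, 176 and 179 CPM in the control libraries. Its groups did not overlap, and its log2 fold change of 0.21 (SE 0.11, 95% interval −0.03 to 0.45) did not pass. Lamc1, the gamma chain shared by most laminins, had 133 and 154 CPM in the dCKO libraries, against 146, 129.9 and 158 CPM in the control libraries (log2 fold change −0.01, 95% interval −0.28 to 0.26), and Lamb2 overlapped likewise at −0.02 (SE 0.16).

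Lama3 and Lamb3, chains of the epithelial anchoring laminin, were scarce. Lamb3 had 24 and 26 counts in the dCKO libraries, against 16, 9 and 12 counts in the control libraries (log2 fold change 0.29, SE 0.47). Lama3 had 10 and 10 counts against 4, 5 and 4, and Lamc3 had 12 and 12 counts against 3, 2 and 3, both too few to be tested.

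Levels of different members were compared per kilobase of the longest annotated transcript, a scale on which lengths from GENCODE stand in for the isoforms present. On it Itgb5 had the highest mean, at 78.4 ± 7.46 in dCKO tissue and 65.8 ± 9.05 in control tissue (SD, n = 2 and 3), followed by Itgb1 at 50.4 ± 3.79 and 54.7 ± 6.87 and by Lamb1 at 35.4 ± 1.44 and 30.5 ± 0.329. In control tissue Itgb5 and Itgb1 lay within their spread, and in control replicate 2 Itgb1 was the higher. Itga3 stood at 27.5 ± 1.47 in dCKO tissue and 19.2 ± 1.67 in control tissue. Lamc1 stood at 18.8 ± 1.98 and 19.0 ± 1.87 in dCKO and control tissue, and Itga5 at 18.3 ± 0.757 and 18.8 ± 0.585. In dCKO tissue both libraries had Itga3 above Lamc1 and Itga5, whereas in control tissue the levels of these 3 genes lay within their spread. Lama5 made up 48.8% of the summed alpha chain level in each dCKO library, against 35.4%, 38.1% and 40.5% in the control libraries. Lama1 made up 25.8% and 25.9% of it in the dCKO libraries, against 38.3%, 33.1% and 31.9% in the control libraries. The ratio of Lama5 to Lama1 was therefore 1.89 and 1.88 in the dCKO libraries and 0.924, 1.15 and 1.27 in the control libraries, while Lama4 kept 22.9% and 22.0% in the dCKO libraries, against 22.3%, 23.8% and 22.6% in the control libraries. Summed over chains, alpha came to 18.8 and 22.8 CPM per kilobase in the dCKO libraries, against 15.5, 15.4 and 19.6 in the control libraries. Beta chains summed to 40.7 and 43.6 CPM per kilobase in the dCKO libraries, against 38.1, 36.1 and 37.7 in the control libraries. Among matrix-binding alpha integrins, Itga3 made up 32.8% and 29.5% of the summed level per length in the dCKO libraries, against 23.3%, 23.3% and 26.1% in the control libraries, and Itga5 20.4% and 21.0%, against 24.8%, 23.0% and 23.6%. These shares were not tested. The GC trend was not removed from these levels, shares and ratios. The longest transcripts of Lama5 and Lama1 differ in composition, at 59.9% and 53.8% G or C.

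**Figure D4:**
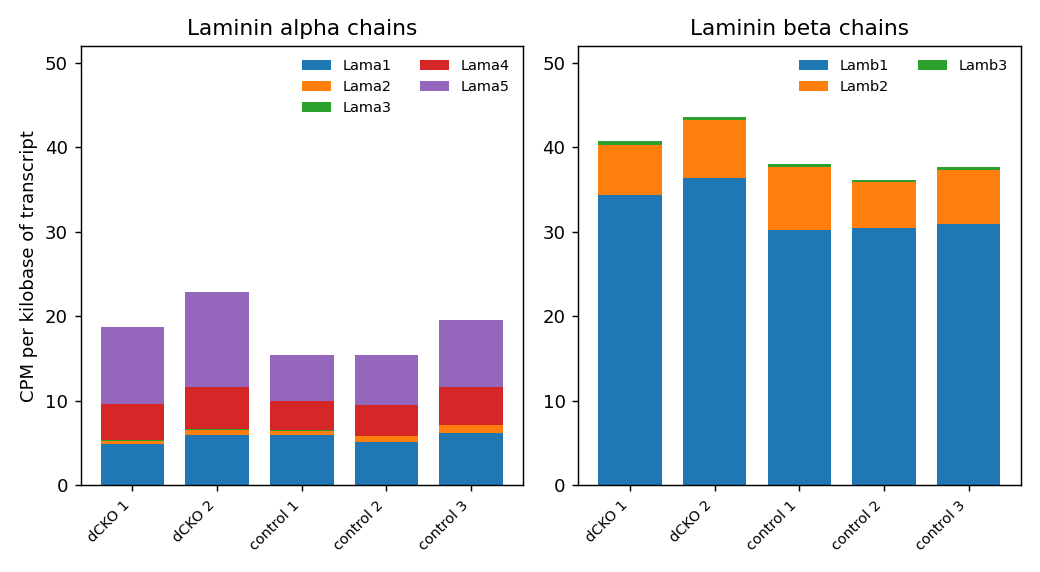
CPM per kilobase of transcript of the laminin alpha and beta chains in each library, stacked by gene, dCKO libraries on the left and control libraries on the right. The Lama5 segment fills 48.8% of the alpha stack in both dCKO libraries and 35.4% to 40.5% of it in the control libraries, while Lamb1 fills most of the beta stack in every library.

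Itga3, Lama5 and Itgb4 are known from epithelia, and some epithelial markers were higher in dCKO tissue as well. All 12 epithelial markers were tested and 3 were called, all higher, against 6.42% of all tested genes, Krt19 at a log2 fold change of 0.91 (SE 0.16), Krt8 at 0.67 (SE 0.14) and Krt18 at 0.50 (SE 0.13), while 9 did not pass, among them Cdh1 at 0.21 and Perp at 0.19. The median over the list was 0.42, and in 9 of the 12 every dCKO library lay above every control library, against 19.0% of all tested genes. They summed to 677 and 650 CPM in the dCKO libraries, against 473, 560 and 448 CPM in the control libraries. Set against that sum, Itga3 came to 20.5% and 19.8% of it in the dCKO libraries and to 18.6%, 15.9% and 22.9% in the control libraries, so that the groups overlapped. Lama5 came to 15.4% and 19.5% in the dCKO libraries, against 13.2%, 11.9% and 20.2% in the control libraries, which overlapped too. Itgb4 came to 1.09% and 1.44% of the same sum in the dCKO libraries, against 1.08%, 0.70% and 0.921% in the control libraries, so that its groups did not overlap, though only narrowly. The part of epithelial content in these levels was not tested further. Of the 10 endothelial markers, Cldn5 was called higher, and their sum was 298 and 344 CPM in the dCKO libraries, against 302, 301 and 270 CPM in the control libraries. The 8 arch muscle markers summed to 118 and 103 CPM in the dCKO libraries, against 72.1, 68.7 and 94.9 CPM in the control libraries. Of the 7 that were tested, 0 were called, though all 7 had log2 fold changes above 0 (median 0.73). In 4 of the 7 (57.1%, against 19.0% of all tested genes) every dCKO library lay above every control library. Myod1, 1 of these 4, passed the filter on low counts only through its dCKO libraries.

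The other proteins of the basement membrane and its receptors were followed with a list of 10 genes, all tested, of which 3 were called, all higher (30.0% against 6.42% of all tested genes, median log2 fold change 0.14). Bcam, a receptor for the Lama5 chain found on epithelia, had 259 and 248 CPM in the dCKO libraries, against 178, 173 and 181 CPM in the control libraries (log2 fold change 0.51, SE 0.11, edgeR adjusted p = 0.00761). Agrn, a heparan sulphate proteoglycan that binds laminin, had 283 and 306 CPM in the dCKO libraries, against 199.7, 181 and 257 CPM in the control libraries (log2 fold change 0.47, SE 0.14, edgeR adjusted p = 0.0442). Col18a1, the collagen that yields endostatin, had 712 and 599 CPM in the dCKO libraries, against 420.0, 473 and 553 CPM in the control libraries (log2 fold change 0.44, SE 0.12, edgeR adjusted p = 0.0364). All 3 lost their call when the GC trend was removed, at log2 fold changes of 0.26, 0.31 and 0.20 for Bcam, Agrn and Col18a1 (edgeR adjusted p of 0.203, 0.130 and 0.258). Bcam also lost it without control replicate 2 or dCKO replicate 1 (up to 0.0803), Agrn without each library in turn but control replicate 3 (at most 0.219) and Col18a1 without control replicate 1, control replicate 2 or dCKO replicate 1 (up to 0.355). Nid1 and Nid2, which link laminin to collagen IV, stood at −0.07 (SE 0.14) and 0.05 (SE 0.12), and Dag1, the laminin receptor dystroglycan, at 0.04 (SE 0.13). Hspg2 stood at 0.51 (SE 0.16), above the estimates of Agrn and Col18a1, with overlapping groups, and did not pass (edgeR adjusted p = 0.0760). Col4a1, Col4a2 and Ntn4 stood at 0.18 (SE 0.13), 0.10 (SE 0.13) and −0.33 (SE 0.35) and did not pass.

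Of 16 integrin ligands 14 were tested, and 1 was called, lower (7.14%, close to the 6.42% of all tested genes, median log2 fold change 0.07). Spp1, or osteopontin, an RGD ligand of Itgav integrins made by osteogenic cells and macrophages, had 4 and 2 counts in the dCKO libraries, against 22, 18 and 21 counts in the control libraries. Spp1 passed the filter on low counts only through its control libraries. No library of one group came near the other, and the log2 fold change was −3.42 (SE 0.64, edgeR adjusted p = 0.00151). Without dCKO replicate 2 it was −2.89 and not called (edgeR adjusted p = 0.0751). Fn1, the fibronectin ligand of Itga5 and the most abundant gene of the list, had 286 and 415 CPM in the dCKO libraries, against 357, 319 and 350.5 CPM in the control libraries, where the 2 dCKO libraries lay on either side of all controls (log2 fold change 0.04, SE 0.14).

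Of 22 tested intracellular integrin adaptors, 2 were called higher and 1 lower (13.6%, against 6.42% of all tested genes, median log2 fold change 0.00). Fermt3, the integrin activator kindlin of blood cells, had 23.4 and 45.5 CPM in the dCKO libraries, against 3.94, 5.55 and 4.58 CPM in the control libraries. A log2 fold change of 2.88 (SE 0.26) with an edgeR adjusted p of 2.03e-07 was called in every alternative, and like Itgb2 it was highest in dCKO replicate 2. Ptk2b, a focal adhesion kinase relative prominent in blood cells, had 25 and 61 counts in the dCKO libraries, against 4, 3 and 8 counts in the control libraries (log2 fold change 2.31, SE 0.55, edgeR adjusted p = 0.0133). Ptk2b too passed the filter on low counts only through its dCKO libraries. Its call was lost without control replicate 1 (edgeR adjusted p = 0.0814) or dCKO replicate 2 (0.290). Dab2, an endocytic adaptor for integrins, had 24.8 and 36.8 CPM in the dCKO libraries, against 55.1, 50.0 and 43.8 CPM in the control libraries (log2 fold change −0.69, SE 0.17, edgeR adjusted p = 0.0182), a call lost without control replicate 1 (−0.60, adjusted p = 0.118) or dCKO replicate 1 (−0.42, adjusted p = 0.353). The other kindlins did not pass, Fermt1 of epithelia at 0.48 (SE 0.15, edgeR adjusted p = 0.0557) and Fermt2 of mesenchyme at −0.29 (SE 0.12, edgeR adjusted p = 0.156). Tln1, the talin that opens integrins and the most abundant adaptor, had 284 and 354 CPM in the dCKO libraries, against 248, 242 and 292 CPM in the control libraries, an overlap at a log2 fold change of 0.29 (SE 0.13).

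**Figure D5:**
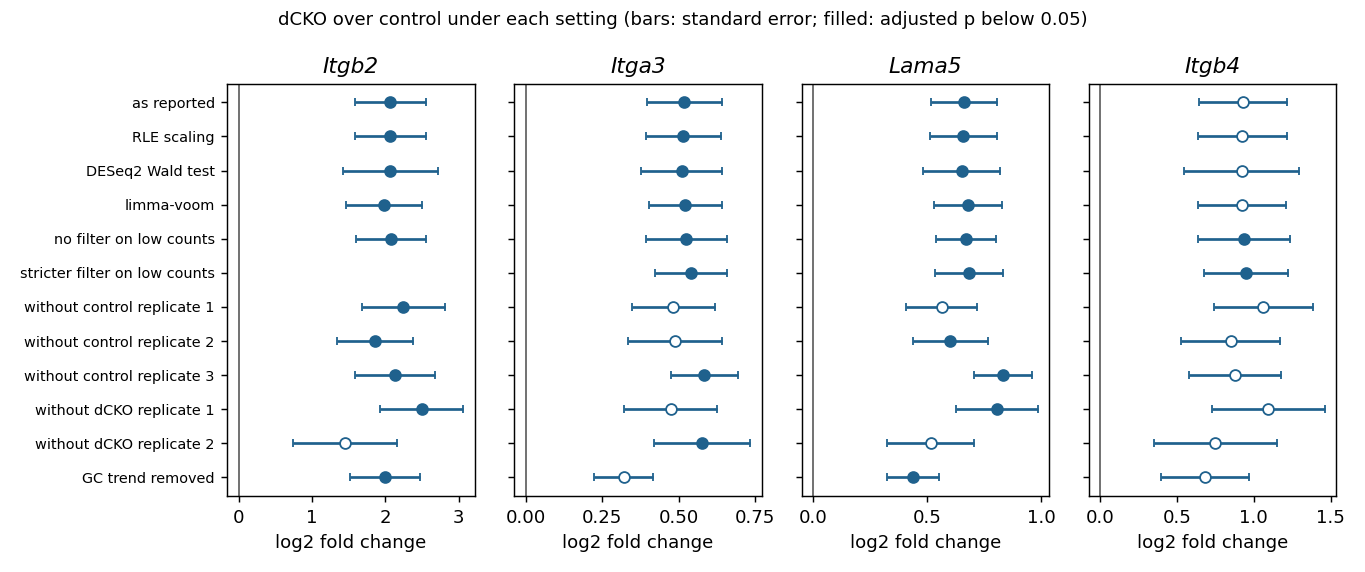
Log2 fold changes, dCKO over control, of Itgb2, Itga3, Lama5 and Itgb4 as reported and under other settings (points), with standard errors (bars), filled where the adjusted p is below 0.05. The settings with the replicate number as a block are not shown. All values lie above 0, the Itgb2 point is open without dCKO replicate 2, the Itga3 points are open without control replicate 1, control replicate 2 or dCKO replicate 1 and after the GC trend was removed, the Lama5 points are open without control replicate 1 or dCKO replicate 2, and the Itgb4 point is filled only under the other filters on low counts.

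The authors' deposited table of their own comparison lists all 34 members and gives 2 of them an adjusted p below 0.05, Itga3 (fold change 1.46, adjusted p = 0.00994) and Lama5 (fold change 1.61, adjusted p = 0.0421), where 2.88% of its 18610 genes pass. The authors' deposited table gives Itgb2 a fold change of 3.81 and an adjusted p of 0.119, and Itgb4 a fold change of 1.90 and an adjusted p of 0.150. Its group means matched those computed from the counts plus 1 within 2% for 99.8% of genes, against 57.9% of genes in the control mean when 1 was not added. For scarce members such as Itgax, whose control libraries hold 0 counts while the authors' deposited table gives a control mean of 1.21, its fold changes are drawn towards 1.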

How the data were processed

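The 5 libraries were grouped by their titles and genotypes. Count columns headed wild type were matched to control samples by replicate number. The authors deposited raw read counts per gene symbol, and the submitters' processing notes name the mm9 build, DESeq 1.16.0 and HTSeq 0.5.4p3. The sources used here name no aligner, annotation or strand setting. Per the file headers, the authors' own table holds a signal (mean normalized counts), fold changes as a ratio and as log2, p-values and adjusted p-values. Its row for reads assigned to no gene, left out here, holds 41.9% of its summed mean counts. The count table has 27 symbols turned into dates, none a member.

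Tests ran in edgeR 4.0.16 (R 4.3.3): filterByExpr (minimum count 10, minimum total 15), TMM scaling, and the two-sided quasi-likelihood F test over 12710 genes with a threshold of 0.05. CPM are TMM-scaled. Standard errors were taken as |log2 fold change| divided by √F, and 95% intervals use the test's degrees of freedom. In counts simulated for this comparison over 12710 genes, 84 of 100 genes changed 2-fold and 100 of 100 changed 4-fold were called. The changed genes were drawn from all levels of expression, and no change below 2-fold was simulated. These rates therefore do not hold for smaller changes or for scarce members. Alternatives were RLE scaling, DESeq2 1.42.0, limma-voom (limma 3.58.1), other filters, each library left out, the replicate number as a block, and removal of each library's trend with GC content. Transcript length and GC content came from GENCODE M21 (GRCm38), for 99.3% of tested genes. Between replicates, chi-square per gene was 4.43 to 14.1, above sampling noise, so no library was treated as a repeat deposit.

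The members, lists and tests were chosen with earlier results of these data known, and some subunits are not reported here. Named were all called members, the most abundant member and the one with the smallest p of each role, Itgb1 and Itgb2, and, by p, up to 6 called partners and up to 4 called markers per list. The most abundant partner of each list was named too. Other members, and Nid1, Nid2, Dag1, Hspg2, Col4a1, Col4a2, Ntn4, Fermt1, Fermt2 and the promoter windows, were picked after their values were seen. So were the markers Ptprc, Tyrobp, Spi1, Aif1, Cd52, Fcgr3, Cdh1, Perp and Myod1. No annotated gene of the other strand overlaps Itgb2, Itga3 or Lama5 in GENCODE M21.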

Additional observations from a re-analysis of the deposited data

How the results depend on the processing

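Itgb2, Itga3 and Lama5 were higher in dCKO tissue under all 13 alternatives that gave them a value, and the stricter filter (a mean of at least 5 CPM, and 1 CPM or more in 2 libraries) gave Itgb2 none. Over these, the edgeR, DESeq2 or limma-voom adjusted p ran from 0.000445 to 0.313 for Itgb2, from 0.00129 to 0.128 for Itga3 and from 2.12e-05 to 0.166 for Lama5. Besides these 3, Itgb4 was called in 2 alternatives and Itgb5 in 1, both higher. With single libraries left out, the number of genes called ran from 442 to 1637 (816 with all libraries, 485 without control replicate 1, 634 without control replicate 2, 1637 without control replicate 3, 442 without dCKO replicate 1 and 483 without dCKO replicate 2), of members from 1 to 3 (3 with all) and of partner genes from 3 to 9 (7 with all, 3 without control replicate 1, and 4 each without control replicate 2 or either dCKO library). The single dCKO library remaining in 2 of these fits is assumed to vary as the controls do. With the replicate number as a block, 2121 genes, 4 members (Itgb5 added, edgeR adjusted p = 0.0293) and 14 partner genes were called, and together with removal of the GC trend 1046, 2 and 6. The labels do not say that the numbers pair libraries, so the block was not taken as the design. The correlations of deviations for numbers 1 and 2 were 0.084 and −0.0042. With 2 dCKO libraries the deviations from their mean mirror each other, so these values cannot decide whether the numbers pair libraries. The 180 genes called lower became 305 with no filter on low counts, 921 with the block and 350 with the block and GC removal, and the 5 partner genes called higher became 3 with the GC trend removed. No other setting moved the total called by over 1.5 times. The cause of these moves was not tested. Depth limits the leukocyte integrins most: 4 of the 7 had too few counts to be tested, and Itgb2 had 5 to 72 counts a library.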
